A study of Homo sapiens with 32 samples.

Results

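Fibroblast growth factor (FGF) signalling was followed through 10 genes in HGrC1 cells, an immortalized line of human non-luteinized granulosa cells, the cells that surround the oocyte in the follicle. The genes were taken by symbol and comprise 5 ligands (FGF1, FGF2, FGF5, FGF7 and FGF18), the receptor tyrosine kinases FGFR1 to FGFR4, and FGFRL1. All 10 were among the 18583 gene entries with values, and 8 of the 10 had enough counts to be tested. FGF7 and FGFR2 did not.

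RNA came from 4 separately frozen vials of the line. The cells of each vial were divided among a vehicle control and 0.01, 0.1 or 1 µM perfluorooctane sulfonate (PFOS), a persistent fluorinated surfactant, and 1 library was made per culture after 6 weeks and 1 after 12 weeks, giving 32 libraries in 8 groups of n = 4. Every culture, controls included, contained 0.05% DMSO and a steroid at 100 nM, named as estradiol in the sample labels and as testosterone in the study's methods. PFOS was renewed at each passage. Libraries with the same replicate number were taken to come from the same vial, which the sample titles do not state. Because all vials hold the same immortalized line, the spread between the 4 libraries of a group is that between vials of 1 line and not between donors.

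Expected read counts per library totalled 17907056 to 18553348, so depth differed little. Of 14 markers of granulosa cells, 12 had values. AMH (191 to 319 counts per library), FST (280 to 516) and INHBA (123 to 412) were the most abundant, FOXL2 had 10 to 37, the aromatase gene CYP19A1 had 0 to 1, and the gonadotropin receptors FSHR and LHCGR were listed without a value. The theca cell enzyme CYP17A1 had 0 to 1 counts. Of 4 stroma genes, COL1A1 (29323 to 48482 counts) and LUM (695 to 1197) lay above every granulosa marker. PDGFRA had 1 to 40 and DCN 3 to 21. Summed counts of 6 liver transcripts (ALB, AFP, AHSG, APOB, AMBP and GPC3) were 0 or 1 in the 8 libraries of 6 weeks that had received vehicle or 0.01 µM, 72 to 174 in 23 other libraries, and 919 in replicate 3 of the 12-week control. These 6 were picked from a list of 18 liver genes. Of the others, VTN (592 to 1210 counts), SERPINA1 (141 to 379), TF (68 to 249) and APOA1 (41 to 118) were present in all 32 libraries. The rest had at most 35 counts in any library.

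FGFs are secreted proteins that bind heparan sulfate on cell surfaces and, together with it, bring receptor kinases into pairs. The activated receptor passes the signal through the docking protein FRS2 to the RAS and ERK kinases, which induce ETS and EGR transcription factors as well as Sprouty and DUSP proteins that damp the pathway. FGFRL1 binds FGFs but lacks the intracellular kinase. In the ovary FGF2 is known as a mitogen and survival factor of granulosa cells.

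The starts of 4 of the genes are shown because their transcripts carry the differences described below: FGF1 and FGFR3 were lower at 0.1 µM PFOS, and FGF5 and FGF18 moved in opposite directions between 6 and 12 weeks. Each line is the RefSeq sequence (GRCh38.p14) of the 250 bases before the annotated start of the gene, 5′ to 3′ on the strand of the gene. Capitals mark GC boxes (GGGCGG on either strand), the binding motif of SP1-type factors, and overlapping copies run together.
FGF1: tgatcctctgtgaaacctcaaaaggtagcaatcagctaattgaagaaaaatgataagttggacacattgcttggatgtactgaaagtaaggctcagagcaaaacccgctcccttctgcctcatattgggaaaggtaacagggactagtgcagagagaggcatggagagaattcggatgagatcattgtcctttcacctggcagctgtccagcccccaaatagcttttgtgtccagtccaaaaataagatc
FGFR3: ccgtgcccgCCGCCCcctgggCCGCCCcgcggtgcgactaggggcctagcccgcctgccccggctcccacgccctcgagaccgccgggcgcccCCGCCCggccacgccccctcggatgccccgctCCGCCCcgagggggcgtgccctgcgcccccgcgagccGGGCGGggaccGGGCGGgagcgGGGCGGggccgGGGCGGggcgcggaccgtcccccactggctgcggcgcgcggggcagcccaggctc
FGF5: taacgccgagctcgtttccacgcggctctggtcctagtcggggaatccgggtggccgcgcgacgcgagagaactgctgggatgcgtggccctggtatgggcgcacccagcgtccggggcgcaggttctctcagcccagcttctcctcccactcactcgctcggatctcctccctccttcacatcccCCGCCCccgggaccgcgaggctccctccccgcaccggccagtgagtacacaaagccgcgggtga
FGF18: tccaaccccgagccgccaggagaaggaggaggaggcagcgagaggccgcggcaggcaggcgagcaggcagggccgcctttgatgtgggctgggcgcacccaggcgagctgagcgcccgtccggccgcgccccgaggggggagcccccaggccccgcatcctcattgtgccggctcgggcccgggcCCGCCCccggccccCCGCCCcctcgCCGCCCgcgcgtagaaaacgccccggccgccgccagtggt

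The stretch of FGF1 lies at chr5:142698071-142698320 on the minus strand and holds 0 GC boxes and 2 CpG dinucleotides at 44.8% G+C. That of FGFR3 (chr4:1793043-1793292, plus strand) holds 8 GC boxes and 40 CpGs at 86.8% G+C, that of FGF5 (chr4:80266338-80266587, plus strand) holds 1 and 27 at 68.8%, and that of FGF18 (chr5:171419397-171419646, plus strand) holds 3 and 31 at 78.8%. Across 35116 such stretches the median was 58.0% G+C with 11 CpGs, and 42.6% held a GC box. The other motifs searched on both strands were a TATA box (TATAAA, in 10.7% of all stretches), an AP-1 site (TGANTCA, 6.57%) and a cAMP response element (TGACGTCA, 1.65%), and none of these letters occurred in the 4 stretches shown. Of the 4 starts shown, that of FGF1 had fewer CpGs than the median and the other 3 had more. RefSeq lists 3 further starts of FGF1, with 45.6% to 60.8% G+C and 2 to 7 CpGs. Those at 142686090 and 142644239 hold 1 GC box each, and the latter also holds 1 AP-1 site. A further start of FGF5, at 80268268, has 47.2% G+C, 3 CpGs, 0 GC boxes and 2 TATA box matches. Gene counts do not tell which start was in use.

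Levels were compared between genes in TPM, which corrects for gene length. Over the 32 libraries the ligand with the most RNA was FGF18 (32.1 to 75.4 TPM, mean 48.9), a factor known from the growth of bone and lung. FGF2 followed at 7.72 to 12.4 TPM (mean 9.85). FGF5, a regulator of the hair cycle, was at 0.28 to 3.36 TPM and FGF1, a ligand of all 4 receptor kinases, at 0.24 to 1.67 TPM. FGF7, the keratinocyte growth factor, had 0 to 10 counts per library and at most 0.16 TPM. Of the 17 remaining genes of the FGF family, 14 had values, and only FGF11, whose product stays inside the cell, exceeded 7 counts in any library (6 to 24).

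FGFRL1 was the most abundant receptor-like gene (35.8 to 57.2 TPM, mean 46.7). FGFR1 was the main receptor kinase at 21.4 to 33.5 TPM (mean 26.7). FGFR4, the receptor of the bile acid hormone FGF19 in liver, and FGFR3, a brake on bone growth, lay close together at 3.38 to 6.16 and 3.52 to 6.10 TPM. FGFR2 was listed with 1 count in 1 library and 2 counts in another, and with 0 counts in the other 30, where up to 3 counts cannot be told from 0. FGFR1 made up 68.0 ± 2.2% (SD, n = 4) of the summed TPM of FGFR1 to FGFR4 in the 6-week control, and FGF18 made up 70.4 ± 3.28% (SD, n = 4) of the summed TPM of the 5 ligands.

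In the 6-week control the order from high to low was FGFRL1 (52.8 ± 3.82 TPM, SD, n = 4), FGF18 (37.4 ± 2.01), FGFR1 (23.5 ± 1.49), FGF2 (11.9 ± 0.843), FGFR4 (5.74 ± 0.491), FGFR3 (5.28 ± 0.0983), FGF5 (2.39 ± 1.00), FGF1 (1.39 ± 0.307), FGF7 (0.0650 ± 0.0192) and FGFR2. The ranges of FGFR4 and FGFR3 overlapped in this group, as did those of FGF5 and FGF1. In the 12-week control FGF18 (52.1 ± 10.9 TPM, SD, n = 4) stood above FGFRL1 (44.1 ± 1.74), with overlapping ranges. FGFR3 (4.66 ± 0.502) and FGFR4 (4.08 ± 0.563) also overlapped there, as did FGF1 (0.728 ± 0.299) and FGF5 (0.450 ± 0.145). In all 8 groups FGFR1 stood directly above FGF2, without overlap. FGF18 led the order in the 4 groups of 12 weeks and FGFRL1 in the 4 groups of 6 weeks.

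Several of these genes share their place in the genome with others. FGF2 (chromosome 4, 122826682 to 122898236, plus strand) shares 5660 bases with NUDT6, which runs the other way and had 103 to 169 counts per library, against 599 to 960 for FGF2. FGF7 (chromosome 15, 49423242 to 49488775, plus strand) lies inside FAM227B, on the opposite strand, with 6 to 23 counts, and has pseudogene copies. The strand setting of the authors' counting is not given in the sources used here, so reads of these overlapping genes may not be fully separated. FGFR2 (chromosome 10, 121478330 to 121598458), FGFR4 (chromosome 5, 177086915 to 177098144) and FGFRL1 (chromosome 4, 1010212 to 1026898) overlap no other RefSeq gene.

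After 6 weeks at 0.1 µM PFOS, FGF1, FGFR3 and FGFRL1 were lower than in the control, and the other 5 tested members did not pass. These 3 of 8 calls stand beside 4.24% called among the 12836 genes tested, and beside 2.69% called lower. The question here is whether the exposed granulosa cells differ from the vehicle cultures of the same time, tested without pairing by vial. A call is an adjusted p at or under 0.05 in edgeR's quasi-likelihood test. The median log2 fold change of the 8 members was −0.13, against 0 for all genes. In RNA from whole cultures, fewer cells of a type and less RNA per cell cannot be told apart.

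FGF1 had 50, 42, 68 and 64 counts in the 6-week control libraries, in the order of the vials, and 13, 26, 28 and 16 at 0.1 µM. Every exposed library lay below every control. In CPM, which are counts scaled to library size, the means were 3.07 ± 0.683 and 1.15 ± 0.413 (SD, n = 4), with a log2 fold change of −1.42 (SE 0.34, edgeR adjusted p = 0.0303; exact two-sided permutation test of log2(CPM + 1), p = 0.0286, the smallest that 4 libraries against 4 allow). It was the only member past a 2-fold change in a PFOS comparison, where 0.0857% of genes passed both criteria. The adjusted p rose to 0.0785 without vial 1, 0.157 without vial 3, 0.141 without vial 4 and 0.0698 with all 32 libraries in the fit.

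At 0.01 µM the counts of FGF1 were 57, 42, 29 and 21, and at 1 µM they were 29, 59, 27 and 25. These overlapped the control through vials 1 and 2 at 0.01 µM and through vial 2 at 1 µM. Their log2 fold changes were −0.59 (SE 0.30, edgeR adjusted p = 0.549) and −0.66 (SE 0.30, edgeR adjusted p = 0.352). Without vial 2 the value at 1 µM was −1.15 (edgeR adjusted p = 0.0588), and with each other vial left out in turn it lay between −0.63 and −0.44. FGF1 did not differ detectably between 1 and 0.1 µM (log2 0.75, SE 0.36, edgeR adjusted p = 0.795).

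FGFR3 was at 13.2, 13.9, 13.8 and 13.8 CPM in the 6-week control libraries and at 11.4, 11.8, 11.8 and 10.7 CPM at 0.1 µM. No exposed library reached a control, and the same held at 0.01 µM (12.3, 11.8, 9.40 and 12.0 CPM) and at 1 µM (10.9, 11.3, 11.1 and 11.5 CPM), so that FGFR3 was lower in all 12 exposed libraries than in the 4 controls they share. Its log2 fold change was −0.26 at 0.01 µM (SE 0.07, edgeR unadjusted p = 0.00149, adjusted p = 0.349), −0.26 at 0.1 µM (SE 0.08, unadjusted p = 0.00158, adjusted p = 0.0443) and −0.29 at 1 µM (SE 0.08, unadjusted p = 0.000734, adjusted p = 0.0947). FGFR3 did not differ detectably between 1 and 0.1 µM (log2 −0.02, SE 0.08, edgeR adjusted p = 0.981), so the call at 0.1 µM alone does not set that concentration apart. Under 7 of 11 alternatives FGFR3 no longer passed at 0.1 µM, among them the omission of vial 1 (0.104), 2 (0.0889), 3 (0.138) or 4 (0.229).

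FGFRL1 was at 95.3, 91.0, 102 and 105 CPM in the 6-week control libraries and at 83.1, 87.8, 90.7 and 89.2 CPM at 0.1 µM. The groups did not overlap, though the highest exposed library lay close under the lowest control. The log2 fold change was −0.17 (SE 0.05, edgeR adjusted p = 0.0414; exact two-sided permutation test, p = 0.0286). At 1 µM, with 90.0, 89.6, 85.8 and 89.8 CPM, every library also lay below every control. The log2 fold change there was −0.15 (SE 0.05, edgeR unadjusted p = 0.00397, adjusted p = 0.153; exact two-sided permutation test, p = 0.0286). Without vial 1, 3 or 4 the adjusted p at 0.1 µM was 0.0909, 0.213 and 0.199, and with all 32 libraries 0.173. FGFRL1 at 0.01 µM, with 102.8 CPM in vial 1 and 88.2 to 91.7 CPM in the others, overlapped the control (edgeR adjusted p = 0.623).

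**Figure D1:**
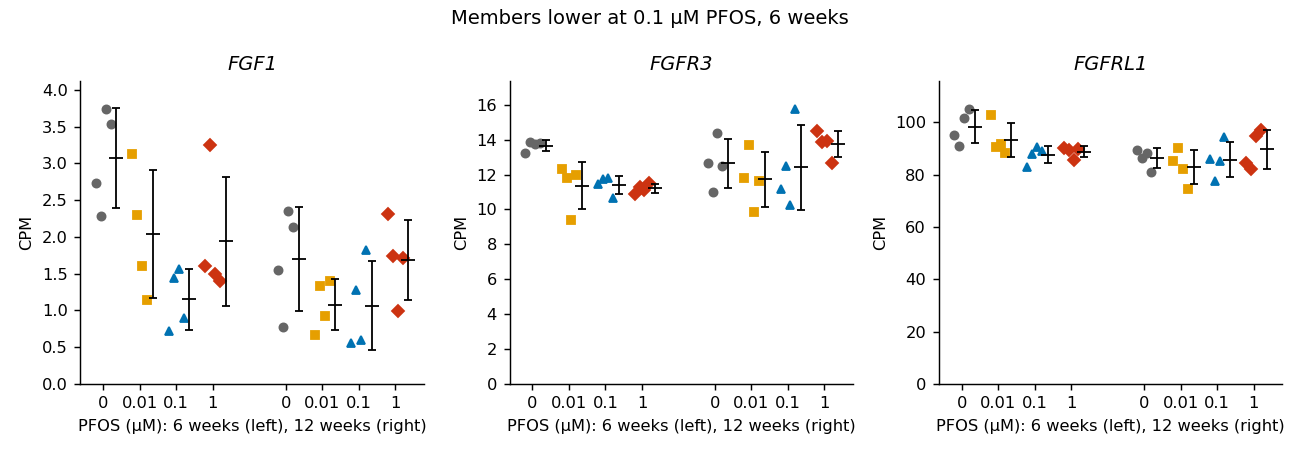
CPM of FGF1, FGFR3 and FGFRL1 in each library (points in the order of vials 1 to 4), with the mean and SD of each group of 4 beside them. At 6 weeks the 0.1 µM libraries lie below all controls for each gene, and at 12 weeks the groups overlap.

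Of the members not called at 0.1 µM, FGF18 was higher in all 4 libraries (50.2, 47.0, 45.9 and 50.9 CPM) than in any control (40.5, 42.4, 39.8 and 44.4 CPM), with a log2 fold change of 0.21 (SE 0.09, unadjusted p = 0.0224, edgeR adjusted p = 0.161; exact permutation test, p = 0.0286). FGF2 was lowest at 0.01 µM, with 47.4, 42.8, 38.1 and 44.1 CPM against 52.5, 50.8, 52.6 and 44.5 CPM in the control of the same vials. That difference (log2 −0.22, SE 0.06, edgeR adjusted p = 0.349) did not pass, and the single control of vial 4 lay within the exposed range. At 0.1 µM FGF2 had an adjusted p of 0.301, and FGF5, FGFR1 and FGFR4 had 0.635 to 0.999. FGFR1 had nearly the same level in all 4 groups, with means of 71.6, 71.9, 71.8 and 73.2 CPM from control to 1 µM.

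The remaining 6-week values overlapped the control. FGF18 was at 40.5, 45.2, 49.4 and 50.5 CPM at 0.01 µM and at 49.6, 37.1, 42.1 and 49.6 CPM at 1 µM. FGF5 ran from 4.19 to 10.96 CPM in the control, and its 12 exposed libraries (5.36 to 7.99 CPM) all lay inside that range. FGFR4 was at 9.04 to 11.02 CPM in the control and at 8.32 to 11.2 CPM in the exposed libraries. FGF7 had 15 counts in all in the 4 control libraries and 12, 8 and 10 in the groups of rising concentration, too few to test.

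At the other concentrations at 6 weeks, edgeR called 0 of the 8 members. Over all genes 0.0% were called at 0.01 µM and 0.28% at 1 µM. An unadjusted p under 0.05 was found for 2 of 8 members at 0.01 µM, where 1232 of 12836 genes had one, and for 3 of 8 at 1 µM, where 1757 did. Between 1 and 0.1 µM there were 0 calls (0.0857% of genes called), and 0 members had an unadjusted p under 0.05, against 802 genes. DESeq2 also called 0 members in these 3 comparisons, though at 1 µM it gave an adjusted p to only 4 of them. Over all genes DESeq2 called 1 of 17020 at 0.01 µM, 119 of 5801 at 1 µM and 25 of 17020 between 1 and 0.1 µM. The median log2 fold change of the members was −0.14 at 0.01 µM and −0.11 at 1 µM, against 0 for all genes in both.

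Some marker sums also differed at 0.1 µM. The 12 granulosa markers with values had summed counts of 1336 to 1422 in controls of 6 weeks and of 1184 to 1294 at 0.1 µM. At 0.01 µM, where 0 members were called, the granulosa sum was already lower in the median (1246 against 1362), with a range of 1223 to 1386. The 6 liver transcripts summed to 0 to 1 in the control and 89 to 141 at 0.1 µM. These liver transcripts were also at 88 to 115 at 1 µM, where the granulosa sum (1331 to 1406) overlapped the control. All 18 liver genes together had 1312 to 1453 counts in the control and 1549 to 1778 at 0.1 µM. The 3 leukocyte genes summed to 141 to 181 in the control and 138 to 195 at 0.1 µM, nearly all from CD14, with CD3E at 0. The endothelial list lay at 33 to 45 in the control and 29 to 40 at 0.1 µM. The stroma list had 35268 to 44381 and 39946 to 43649 counts, and the epithelial list 431 to 484 and 441 to 549. Their part in the member differences was not tested.

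After 12 weeks, edgeR called 0 of the 8 members at any concentration, and 0 members had an unadjusted p under 0.05. Among all 12742 genes 0.0% were called at 0.01 µM, 1.07% at 0.1 µM, 0.22% at 1 µM and 0.0% between 1 and 0.1 µM. DESeq2 called 0 members as well. Over all genes it called 0 of 16896 at 0.01 µM, 283 of 12636 at 0.1 µM, 88 of 12964 at 1 µM and 0 of 16896 between 1 and 0.1 µM. FGF1 was at 28, 14, 43 and 39 counts in the control, 12, 24, 17 and 25 at 0.01 µM, 10, 23, 11 and 33 at 0.1 µM, and 42, 32, 18 and 31 at 1 µM. The libraries of all 4 groups overlapped. Its log2 fold changes were −0.66 (SE 0.38), −0.68 (SE 0.38) and −0.02 (SE 0.35), with edgeR adjusted p of 0.641, 0.395 and 0.991.

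At 12 weeks FGF18 ran from 50.1 to 72.4 CPM in the control and from 60.2 to 87.3 at 0.1 µM (log2 0.28, SE 0.14, edgeR adjusted p = 0.368). FGFR3 was at 12.6 ± 1.40 CPM (SD, n = 4) in the control, 11.7 ± 1.57 at 0.01 µM, 12.4 ± 2.43 at 0.1 µM and 13.7 ± 0.757 at 1 µM. At 1 µM its libraries (12.7 to 14.5 CPM) overlapped the control (10.98 to 14.4 CPM), with a log2 fold change of 0.12 (SE 0.12, edgeR adjusted p = 0.804). FGFRL1 overlapped the control in every PFOS group of 12 weeks, with 81.0 to 89.6 CPM in the control and 74.5 to 97.0 CPM in the exposed libraries.

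**Figure D2:**
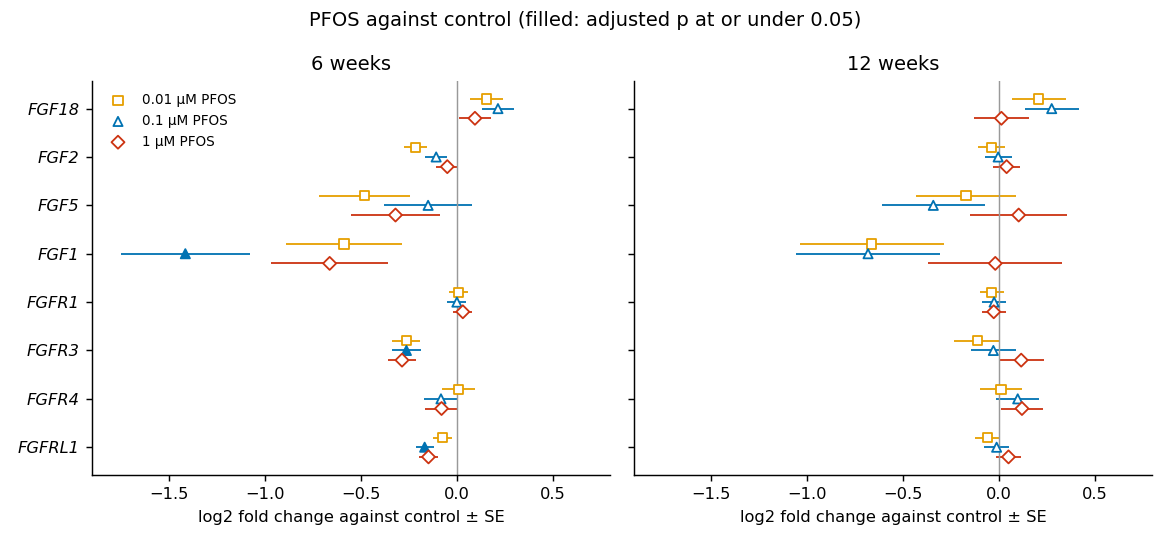
Log2 fold change relative to the time-matched control, with its standard error, for the 8 tested members at each PFOS concentration. Filled symbols passed an adjusted p of 0.05. FGF1, FGFR3 and FGFRL1 at 0.1 µM and 6 weeks are the filled points, and the bars of FGF1 are the longest.

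Whether an effect of PFOS differed between the times was tested as an interaction over the 32 libraries. EdgeR called 0 members at each concentration. From 0.01 to 1 µM 0, 0 and 2 of 8 members had an unadjusted p under 0.05, against 972, 1879 and 1571 of 12988 genes, and DESeq2 called 0 (of 4 members it gave an adjusted p at 0.1 µM and 3 at 1 µM). Among all genes edgeR called 0.0%, 0.208% and 0.123%, and DESeq2 called 1 of 17418, 136 of 6950 and 76 of 4924. At 1 µM the change of FGFR3 at 12 weeks exceeded that at 6 weeks by a log2 of 0.41 (SE 0.14, unadjusted p = 0.00689, edgeR adjusted p = 0.241) and that of FGFRL1 by 0.20 (SE 0.08, unadjusted p = 0.0222, edgeR adjusted p = 0.348). For FGF1 at 0.1 µM the difference was 0.73 (SE 0.55, edgeR adjusted p = 0.568), so the loss of its call at 12 weeks is not shown to be a change of the effect.

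Between 6 and 12 weeks FGF5 and FGF2 fell, and FGF18 and FGFR1 rose, at every concentration and in the control. FGFR4 fell in 3 of these 4 groups. In the control, 7 of 8 members were called (2 higher, 5 lower), beside 36.6% of 12988 genes. The numbers were 6 of 8 at 0.01 µM (42.7% of genes), 5 of 8 at 0.1 µM (40.3%) and 5 of 8 at 1 µM (30.1%). Median log2 changes of the members were −0.29, −0.19, −0.08 and −0.09, against 0 to 0.01 for all genes.

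FGF5 had 184, 77, 199 and 106 counts in the 6-week control and 23, 18, 33 and 39 in the 12-week control. At 0.1 µM it had 129, 110, 143 and 124 counts at 6 weeks and 26, 20, 17 and 26 at 12 weeks. No 12-week library of any concentration reached a 6-week library. The log2 fold changes were −2.32 (SE 0.24, edgeR adjusted p = 1.07e-08) in the control, −2.0 (SE 0.26) at 0.01 µM, −2.51 (SE 0.26) at 0.1 µM and −1.89 (SE 0.25) at 1 µM, each larger than 2-fold, where 3.32%, 3.49%, 3.83% and 3.09% of genes passed both criteria. FGF5 was the only member past 2-fold in a time comparison.

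FGF18 was at 40.5, 42.4, 39.8 and 44.4 CPM in the 6-week control and at 70.8, 72.4, 50.1 and 51.2 CPM after 12 weeks. The 12-week controls fell into a higher pair (vials 1 and 2) and a lower pair (vials 3 and 4), both above the 6-week range. Its log2 fold change was 0.55 (SE 0.13, edgeR adjusted p = 0.00132) in the control, 0.61 (SE 0.12) at 0.01 µM, 0.61 (SE 0.12) at 0.1 µM and 0.47 (SE 0.13, edgeR adjusted p = 0.00576) at 1 µM. Without vial 3 the rise at 1 µM no longer passed (adjusted p 0.0778). FGF18 accounted for 83.6 ± 3.87% (SD, n = 4) of ligand TPM in the 12-week control.

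FGFR1 rose from 68.1, 76.5, 67.7 and 74.1 CPM in the 6-week control to 103, 96.9, 89.8 and 91.0 CPM. The times did not overlap in any concentration group. The log2 change was 0.41 (SE 0.06, edgeR adjusted p = 1.09e-06) in the control and 0.36 to 0.39 in the PFOS groups, all called and kept under every alternative run. FGFR1 came to 77.5 ± 2.96% (SD, n = 4) of the TPM of the 4 receptor kinases in the 12-week control, and to 75.4% to 77.6% in the PFOS groups. The ratio of FGFRL1 to FGFR1 in TPM went from 2.26 ± 0.250 to 1.47 ± 0.0921 (SD, n = 4).

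**Figure D3:**
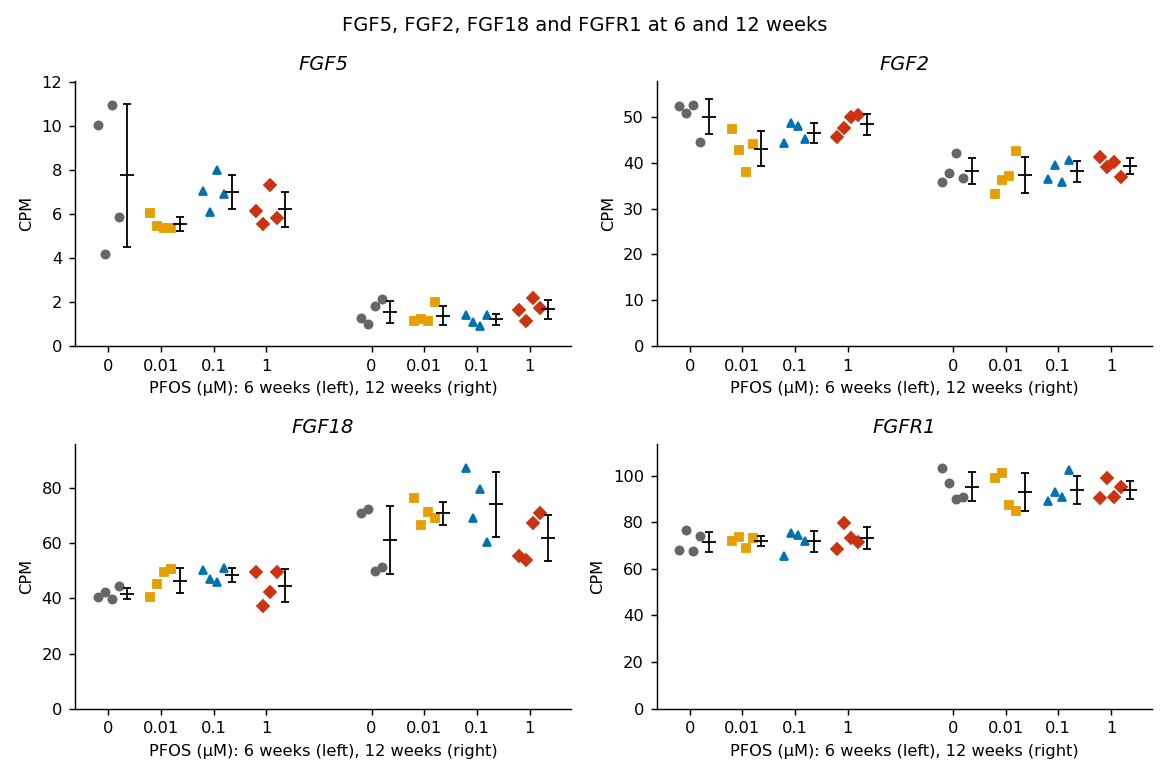
CPM of FGF5, FGF2, FGF18 and FGFR1 in each library (points in the order of vials 1 to 4) with the group mean and SD, by PFOS concentration, 6 weeks at the left and 12 weeks at the right of each panel. FGF5 and FGF2 lie lower at 12 weeks, and FGF18 and FGFR1 lie higher.

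FGF2 fell from 52.5, 50.8, 52.6 and 44.5 to 35.7, 37.8, 42.2 and 36.8 CPM in the control. The log2 change was −0.39 (SE 0.07, edgeR adjusted p = 1.88e-05), and it was −0.21 (SE 0.07, edgeR adjusted p = 0.0124) at 0.01 µM, −0.29 at 0.1 µM and −0.30 at 1 µM (SE 0.07 each). The smallest of these, at 0.01 µM, lost its call without vial 1 (0.261) or 2 (0.0936), and its times overlapped through 1 library of 42.6 CPM at 12 weeks. In all 16 cultures the 12-week library lay below the 6-week library of the same culture.

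FGFR4 went from 10.4, 9.04, 11.02 and 10.7 CPM in the 6-week control to 7.31, 6.35, 8.19 and 8.73 CPM (log2 −0.43, SE 0.10, edgeR adjusted p = 0.000834). It fell by 0.42 on the log2 scale at 0.01 µM (edgeR adjusted p = 0.000778) and by 0.25 at 0.1 µM (0.0439). The latter call of FGFR4 was lost under 5 of 11 alternatives, among them without vial 2 (0.105) or 3 (0.347). At 1 µM its value was −0.22 (SE 0.10, edgeR adjusted p = 0.081). In all 16 cultures the later library of FGFR4 lay below the earlier one.

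FGFRL1 fell in the control (log2 −0.19, SE 0.06, edgeR adjusted p = 0.0125) and at 0.01 µM (−0.17, SE 0.06, 0.0218), with values of −0.03 and 0.01 at 0.1 and 1 µM. Its call in the control was lost without vial 3 (0.0731) or 4 (0.0987), and that at 0.01 µM without vial 1 (0.14) or 3 (0.0877). FGF1 fell in the control (log2 −0.85, SE 0.34, edgeR adjusted p = 0.0483), with overlapping times (exact two-sided permutation test, p = 0.0571). It lost its call under 5 of 11 alternatives, among them the omission of any single vial (0.0814 to 0.123). At 0.01 µM FGF1 stood at −0.92 (SE 0.39, edgeR adjusted p = 0.0556, and 0.0403 with the culture as replicate block). FGFR3 was called at 1 µM only, and higher (log2 0.29, SE 0.10, edgeR adjusted p = 0.0252), lost without vial 1 (0.146) or 2 (0.0793).

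**Figure D4:**
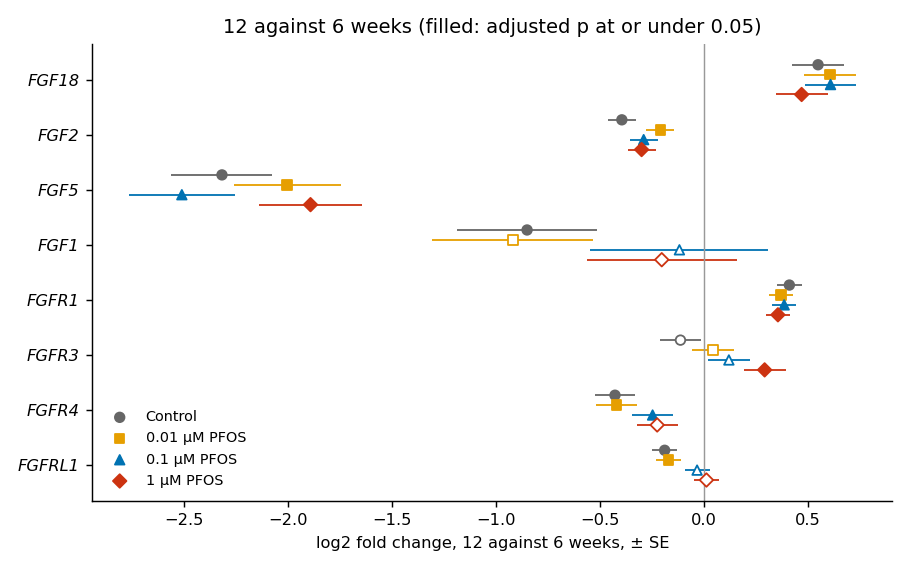
Log2 fold change of 12 against 6 weeks, with its standard error, for the 8 tested members in the control and each PFOS group. Filled symbols passed an adjusted p of 0.05. FGF5 lies farthest to the left in all 4 groups, while FGF18 and FGFR1 lie to the right of 0.

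The times differ in the age of the cultures and in any step done separately for the 2 harvests, which cannot be told apart. Several marker lists moved with time as well. The stroma sum overlapped between the times in the control, with 35268 to 44381 counts at 6 weeks and 36960 to 45194 at 12 weeks. In the control the granulosa sum went from 1336 to 1422 counts to 1010 to 1201, the sum of 3 leukocyte genes, nearly all CD14, from 141 to 181 to 57 to 110, the 3 endothelial genes from 33 to 45 to 15 to 22 and the 3 epithelial genes from 431 to 484 to 276 to 344. The 6 liver transcripts went from 0 or 1 to 81 to 919 counts in the control. At 0.1 and 1 µM they lay at 88 to 141 counts at 6 weeks and 92 to 174 at 12 weeks. All 18 liver genes together had 1312 to 1453 counts in the 6-week control and 1121 to 2703 in the 12-week control. Their part in these differences was not tested. Without replicate 3 of the 12-week control, the library with 919, the same 7 members passed in the control.

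Of 107 further genes of the pathway (other FGFs, co-receptors, heparan sulfate enzymes, adaptors, kinases, feedback inhibitors and transcriptional targets), 75 were tested at 6 weeks and 76 at 12 weeks. At 0.01 µM 0 were called at either time. At 0.1 µM and 6 weeks 2 were higher and 1 lower of 75, beside 4.24% of all genes called, and at 1 µM 1 was higher, beside 0.28%. After 12 weeks 4 of 76 were lower at 0.1 µM, beside 1.07% of all genes called, and 1 was lower at 1 µM, beside 0.22%. Median log2 changes of the list lay between −0.04 and −0.01 in these comparisons, and within 0.01 of 0 for all genes.

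Among targets of the pathway, EGR1, an early-response transcription factor, rose at 0.1 µM and 6 weeks from 216 ± 36.7 to 346 ± 58.6 CPM (SD, n = 4; log2 0.68, SE 0.17, edgeR adjusted p = 0.0432). EGR1 no longer passed under 6 of 11 alternatives, among them the omission of vial 1, 3 or 4 (adjusted p 0.086, 0.231 and 0.265). SOS2, an exchange factor that activates RAS, rose (log2 0.20, SE 0.05, edgeR adjusted p = 0.0332) and the ERK-activating kinase MAP2K2 fell (−0.14, SE 0.03, edgeR adjusted p = 0.0235), both losing their call without several single vials (up to 0.145 and 0.163).

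PHLDA1, a transcript induced by ERK signalling, was higher at 1 µM after 6 weeks (42.9 ± 4.69 to 54.9 ± 2.54 CPM, SD, n = 4; log2 0.35, SE 0.06, edgeR adjusted p = 0.00295) and lower at 0.1 µM after 12 weeks (42.3 ± 8.42 to 27.3 ± 2.12 CPM; −0.64, SE 0.13, edgeR adjusted p = 0.0309). The first had an edgeR adjusted p of 0.298 with all 32 libraries in the fit. Without vial 3 they became 0.0815 and 0.206, and the latter was 0.0939 without vial 1, 0.248 without vial 4 and 0.104 without replicate 3 of the 12-week control. In all, the call of PHLDA1 at 0.1 µM and 12 weeks was lost under 6 of 12 alternatives. MYC fell at 0.1 µM after 12 weeks (351 ± 33.9 to 255 ± 16.8 CPM; −0.47, SE 0.07, edgeR adjusted p = 0.000778, 0.0646 without vial 3), as did IER3 (−0.81, SE 0.16, edgeR adjusted p = 0.0357). At 0.01 µM (298 ± 14.5 CPM) and 1 µM (295 ± 14.6 CPM) MYC also lay below every control library of 12 weeks but was not called. IER3 no longer passed under 6 of 12 alternatives. Among these its adjusted p was 0.0813 with the vial as replicate block, 0.378 without vial 3 and 0.0829 without replicate 3 of the 12-week control. Of 13 immediate early genes, a list of rapidly induced transcripts that holds EGR1 and IER3, 4 were lower at 0.1 µM after 12 weeks, where 69 of 12742 genes were. At 0.1 µM and 6 weeks 1 of the 12 tested was higher and 1 lower, against 199 and 345 of 12836 genes, and in the control 9 of 13 were higher at 12 than at 6 weeks, against 2245 of 12988. With PFOS 7, 1 and 4 of the 13 were higher with time from 0.01 to 1 µM, against 2784, 2564 and 1838 of 12988 genes. In each of these groups 1 was lower, against 2766, 2671 and 2065 genes. At 1 µM after 12 weeks 1 was lower than in the control, against 17 of 12742 genes. Their part in these differences was not tested.

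SPRY2, a Sprouty inhibitor of receptor kinase signalling, was the feedback gene called lower at 0.1 and at 1 µM after 12 weeks. It was at 42.4 ± 2.47 CPM (SD, n = 4) in the control, 36.2 ± 0.476 at 0.01 µM, 35.3 ± 2.78 at 0.1 µM and 31.0 ± 1.21 at 1 µM. At 0.01 µM it was not called, though its libraries (35.5 to 36.5 CPM) lay below every control (39.5 to 44.7 CPM). The log2 changes at 0.1 and 1 µM were −0.27 (SE 0.06, edgeR adjusted p = 0.024) and −0.46 (SE 0.06, edgeR adjusted p = 0.000338). The first was lost under 5 of 12 alternatives, among them without vial 2 (0.101), 3 (0.423) or 4 (0.167) and without replicate 3 of the 12-week control (0.129). The second held under all 12 alternatives. Of 11 feedback inhibitors tested SPRY2 was the only one called against the control.

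Between 6 and 12 weeks more genes of the pathway list were lower than higher. From control to 1 µM, 8, 5, 4 and 6 genes of 76 were higher and 23, 25, 21 and 22 lower, with medians between −0.08 and −0.03. Of all 12988 genes 36.6%, 42.7%, 40.3% and 30.1% were called, with 2245, 2784, 2564 and 1838 higher and 2511, 2766, 2671 and 2065 lower. Lower in all 4 groups were ANOS1 (log2 −1.47 to −1.20), which encodes an extracellular protein that binds FGFR1 complexes, the heparan sulfate proteoglycan SDC3 (−1.16 to −0.94) and SULF2 (−1.21 to −0.94), an enzyme that trims sulfate from heparan sulfate. These 3 genes were chosen after their values were seen.

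Within the family, FGF1 and FGF18 ran opposite to each other from library to library. Pearson's r of log2(CPM + 1) was −0.83 over the 16 libraries at 6 weeks (Spearman −0.829) and −0.883 over the 16 at 12 weeks (Spearman −0.9). Without the 2 libraries farthest from the median of FGF1 it was −0.867 and −0.83. For deviations from the group means, which leave out differences between the groups, it was −0.801 over 32 libraries. FGF1 and FGFRL1 ran together at 6 weeks (r = 0.815 over 16 libraries) and not at 12 weeks (0.055). These are descriptions, since libraries of a vial share their cells, libraries of a time share their harvest, and the pair was singled out after all pairs had been seen.

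Genes whose levels followed a member most closely over the 32 libraries, among 12614 genes with a mean of at least 10 counts, are named with r over all libraries and then within 6 and 12 weeks. For FGF1 they were NCS1 (0.886, with 0.891 and 0.871), CORO1C (0.877, with 0.925 and 0.874) and GLIPR1 (0.875, with 0.916 and 0.819). For FGFR3 they were the actin-bundling ACTN1 (0.793, with 0.739 and 0.823), TRIM58 (0.753, with 0.692 and 0.781) and COTL1 (0.744, with 0.501 and 0.908). FGFRL1 had CDC42EP1 (0.846, with 0.898 and 0.743), the heparan sulfate proteoglycan GPC1 (0.845, with 0.814 and 0.804) and DPP9 (0.825, with 0.758 and 0.794).

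FGF18 was nearest to NEURL1B (0.953, with 0.712 and 0.933), LMNB1 (0.951, with 0.609 and 0.939) and SSBP3 (0.95, with 0.893 and 0.957). FGFR1 was nearest to PKP3 (0.937, with 0.465 and 0.464), TUBB3 (0.929, with −0.0259 and 0.667) and TBC1D4 (0.929, with 0.823 and 0.732). All 3 genes nearest to FGFR1 had a lower r within each time than over both.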

How the data were processed

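Per the labels, RNA with a poly(A) tail was made into strand-marked libraries for DNBSEQ sequencing. The authors aligned reads to GRCh38.p14 with HISAT2 2.0.4 and to its genes with Bowtie2 2.2.5 (versions from the submitters' processing notes). They deposited expected counts per gene from RSEM 1.2.8, without normalization, and TPM. These were used here. Their FPKM and normalized count tables were not. Of 47137 entries, 18583 had values. Groups came from the labels, and 0 columns were left unmapped.

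Counts were rounded to whole numbers and tested with edgeR 4.0.16 (quasi-likelihood, robust, TMM, filterByExpr, limma 3.58.1, R 4.3.3) with Benjamini-Hochberg adjustment over all genes tested. The 16 libraries of a time entered each PFOS comparison and all 32 entered comparisons between times and the interaction. These fits held the group only, with no term for vial or culture. The p-values reported from them, and those of the permutation tests, therefore do not use the pairing, which entered only in the replicate block alternative. SE is the log2 fold change divided by the root of F. Single members were also compared by exact two-sided permutation (scipy 1.17.1) of mean log2(CPM + 1), in 100 tests without adjustment, with 0.0286 as the smallest p. TPM were used to rank levels and not tested. A count of 0 allows up to 3 counts, and such limits cover counting error only.

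The 10 members and the gene lists were chosen with earlier results of these data known. All members were named. Fold changes were given for members with an unadjusted p under 0.05 (and, outside that rule, for FGF1 throughout and for FGF18, FGFR3 and FGFRL1 in single comparisons where a change found elsewhere was looked up), pathway genes for an adjusted p at or under 0.05 in a PFOS comparison, and the 3 genes most like a member for those called with PFOS and the most abundant ligand and receptor kinase. Alternatives were DESeq2 size factors in edgeR, DESeq2 1.42.0, no filter, a mean of at least 10 counts, only the 8 libraries compared, all 32 libraries, the replicate block, and omission of each vial or of replicate 3 of the 12-week control.

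The study's methods state that each vial was divided among the groups, and equal replicate numbers were read as the same vial. The sample titles give the number only. Same-numbered libraries had a mean correlation of 0.055 to 0.124 between groups at 6 weeks, −0.161 to 0.154 at 12 weeks and 0.0294 to 0.093 between times. Of 48 replicate pairs 0 were identical (chi-square per degree of freedom 2.35 to 16.9). The fits were tested on simulated counts with known changes. Those changes were at least 2-fold, in genes with a higher mean count than FGF1. They do not cover FGF1 at its level or the smaller changes of FGFR3 and FGFRL1.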

Additional observations from a re-analysis of the deposited data

Results flagged for a closer look

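In 6 of 71 groups of 4 libraries, the highest or lowest CPM of a member stood apart from the other 3 by Dixon's criterion, which chance alone meets in about 1 of 20 groups. FGF1 at 1 µM and 6 weeks had 1 library (vial 2) at 3.25 CPM against 1.40 to 1.60 in the others. FGF5 at 0.01 µM and 12 weeks had vial 4 at 2.01 against 1.14 to 1.22, and FGF7 at 0.1 µM and 12 weeks had vial 3 at 0.544 against 0.165 to 0.222. FGFR3 had vial 1 at 13.2 against 13.8 to 13.9 in the 6-week control, and vial 3 at 9.40 against 11.8 to 12.3 at 0.01 µM and 6 weeks. FGFRL1 at 1 µM and 6 weeks had vial 3 at 85.8 against 89.6 to 90.0.

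A difference of the PFOS effect between the times passed for 2 transcriptional targets of the pathway and 0 members. For MYC at 0.1 µM the log2 change at 12 weeks minus that at 6 weeks was −0.45 (edgeR adjusted p = 0.00516; 0.255 without vial 3 and 0.17 without vial 4, 0.0148 without replicate 3 of the 12-week control). For PHLDA1 it was −0.72 at 0.1 µM (edgeR adjusted p = 0.0428, up to 0.564 without 1 vial, 0.104 without that replicate) and −0.77 at 1 µM (edgeR adjusted p = 0.0266, up to 0.442 without 1 vial, 0.0651 without that replicate).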

How the results depend on the processing

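The count of members called at 0.1 µM and 6 weeks ranged from 0 to 2 when 1 vial was left out (2 without vial 2, 0 without each of the others) and was 0 with all 32 libraries in one fit, against 3 as reported. Calls over all genes shifted as well, from 544 of 12836 as reported to 49 of 12988 with all 32 libraries. Without vial 1, 2, 3 or 4 they were 128 of 12843, 570 of 12839, 22 of 12851 and 77 of 12847. The other alternatives gave 2 to 4 members called. All other counts of members called stayed within 1.5 times. With the replicate block 3 members were again called there, and beyond FGF1 at 0.01 µM between the times and IER3 it changed no call named here. Single values kept their direction under every alternative run. Of these, 443 kept their side of the threshold, a number that includes any value to which DESeq2 gave no adjusted p. A further 80 no longer passed and 5 newly passed, among them FGF18 at 0.1 µM and 6 weeks (adjusted p 0.0174 on the 8 libraries compared). The order of the members by TPM changed in at most 1 of 8 groups. The cause of these shifts was not tested. FGF1, at 10 to 68 counts, and FGF7 and FGFR2 are limited by depth, and a change of FGF7 or FGFR2 was not detectable here.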
